A study of Mus musculus with 6 samples.

Results

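The genes described are 9 components of the Hedgehog pathway, chosen by name: the ligand genes Ihh and Dhh, the ligand-binding antagonist gene Hhip, the receptor gene Ptch1, the signal transducer genes Smo and Sufu, and the transcription factor genes Gli1, Gli2 and Gli3. All 9 were measured, among 22180 genes in all. Cumulus-oocyte complexes, oocytes still enclosed by their somatic cumulus cells, came from large antral follicles of wildtype mice (21 days old in one label, 23 in another) primed for 46 h with 5 IU of equine chorionic gonadotropin. Pools of 100 complexes were cultured in DMSO, the solvent control, or in 5 µM of Torin1, which blocks the ATP site of the kinase MTOR, for 14 h in one label and 16 h in another. Medium of both groups contained 3 mg/ml of serum albumin together with milrinone at 5 µM, a phosphodiesterase inhibitor that holds the oocyte in meiotic arrest. Each group has 3 arrays. The labels speak of separate sets without saying whether mice or culture days differed, so the spread behind each p-value may be technical only.

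Hedgehog ligands bind Patched receptors and thereby release Smoothened (SMO) from inhibition, after which GLI transcription factors activate target genes. SUFU restrains the GLI proteins, GLI3 acts largely as a repressor when no ligand is present, and Gli1, Ptch1 and Hhip are themselves classical target genes that report pathway activity. In the ovary, granulosa cells are known as the source of Indian and Desert hedgehog, and the theca and stroma as the main responding cells.

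Transcripts at several levels of the pathway were lower with Torin1. Of the 9 genes, Dhh, Ptch1, Smo, Gli1 and Gli2 fell, 0 rose, and Ihh, Hhip, Sufu and Gli3 were not called (limma, Benjamini-Hochberg adjusted p below 0.05 over all genes). Of all genes, 12.1% were called in either direction, 6.94% lower and 5.13% higher. The median log2 difference, Torin1 minus DMSO, was -0.83 over the 9 genes and 0.01 over all genes. Values of the 2 groups did not overlap for 7 of the 9, against 28.6% of all genes. At an unadjusted p below 0.05 in limma, 6 members were lower and 1, Gli3, was higher, a cut that 12.7% of all genes passed as lower and 11.3% as higher. Levels are log2(intensity + 1) throughout, a scale that understates changes of dim genes, and the median gene lay at 4.17. Of the 9 genes, 1 lay below the median gene in both groups, against 10764 of all 22180 genes, so shares of all genes are a low baseline. With only the 11416 genes above the median gene in their higher group, 2840 were called. Of the 8 members among them 6 were called, 5 lower and 1, Gli3, higher.

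**Figure D1:**
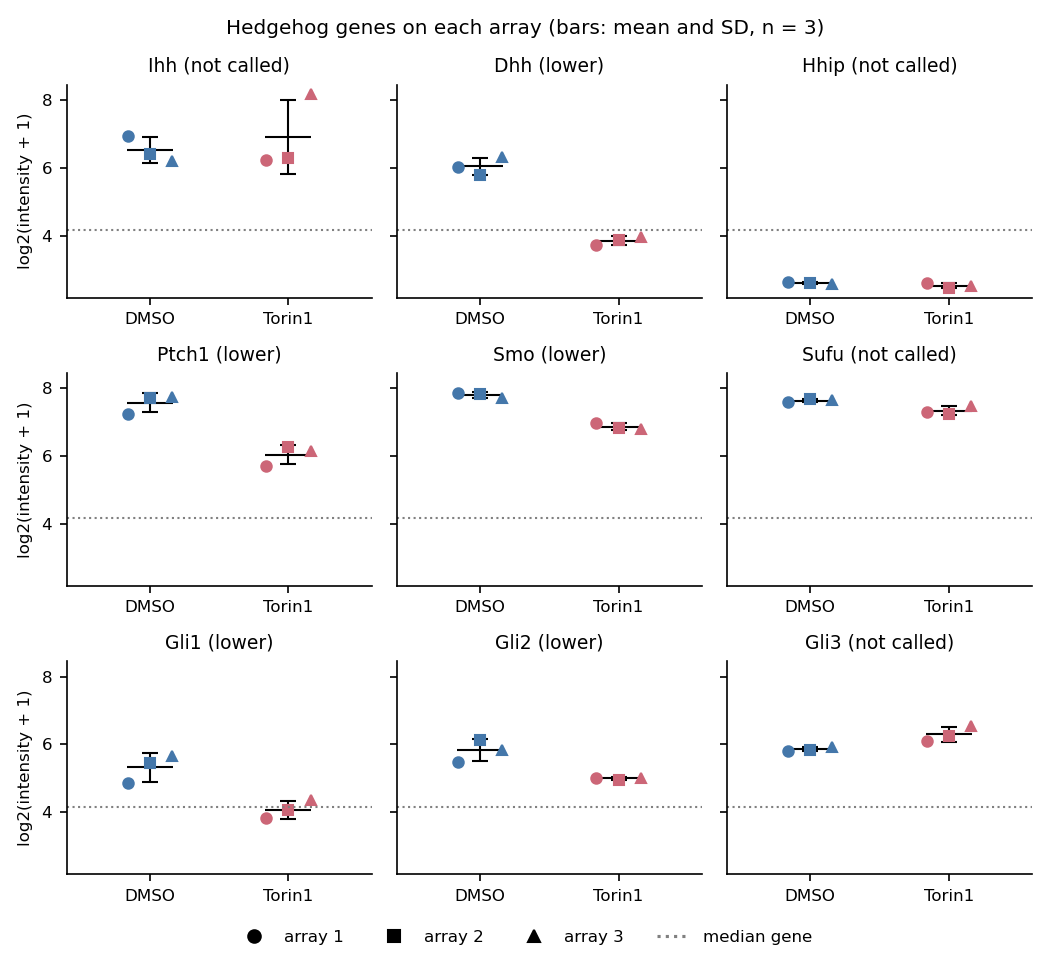
Level of each Hedgehog gene as log2(intensity + 1) on the 3 DMSO and 3 Torin1 arrays, with group mean and SD as bars and the median gene (4.17) dotted. The Torin1 points of Dhh, Ptch1, Smo, Gli1 and Gli2 all lie under the DMSO points, and Ihh has 1 Torin1 point, at 8.18, far above the rest.

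Torin1 array 3 stood apart from its group before any gene was considered. On the second principal component, which took 16.5% of the variance, it lay at 30.4 and Torin1 arrays 1 and 2 at -14.1 and -19.8. Its description also carries the short name of sample 2. Array medians ran from 11.1 to 12.0 intensity units. Of the markers of the labelled tissue, 15 of 15 oocyte and 12 of 12 granulosa and cumulus genes lay above the median gene in at least 1 group.

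Of the ligand genes, Dhh fell and Ihh was not called. Dhh, which encodes Desert hedgehog, stood at 6.04, 5.80 and 6.31 on DMSO arrays 1, 2 and 3 and at 3.74, 3.88 and 3.98 on the Torin1 arrays. The groups were far apart and each was tight. Dhh fell by 2.19 ± 0.14 on the log2 scale (SE; 4.56-fold lower; limma adjusted p = 0.00023), from 6.05 ± 0.26 to 3.86 ± 0.12 (SD, n = 3 each). With Torin1 it was dimmer than the median gene, which leaves the size of the fall uncertain. Ihh, which encodes Indian hedgehog, stood at 6.95, 6.43 and 6.21 with DMSO and at 6.24, 6.31 and 8.18 with Torin1. Torin1 arrays 1 and 2 lay within the DMSO range and array 3 lay above every other array. The difference of 0.38 ± 0.51 (SE) was not called (limma adjusted p = 0.771), and without Torin1 array 3 it was -0.25 (limma adjusted p = 0.560). Within arrays, the Ihh minus Dhh difference was 0.48 on average with DMSO and 3.05 with Torin1, and the arrays of the groups did not overlap. By array it was 0.91, 0.62 and -0.10 with DMSO and 2.51, 2.43 and 4.20 with Torin1, with array 3 raising the Torin1 mean. The shift of 2.57 had an exact two-sided permutation p of 0.1, the smallest that 3 against 3 arrays allow. It is made up of the Dhh fall and the Ihh difference that was not called, so it is no separate evidence.

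For the ligand genes and Smo, the upstream promoter sequence is shown so that the GLI motif search can be followed (RefSeq, GRCm38.p6, 5′ to 3′ on the gene's strand). The transcript start lies at the outer start of the gene for Ihh and Smo and 22 bases inside it for Dhh, whose sequence was shortened by these bases to 228. Capitals mark CCACCC or its reverse complement GGGTGG, the core of the GLI consensus GACCACCCA.
Dhh, chr15:98898563-98898790, minus strand: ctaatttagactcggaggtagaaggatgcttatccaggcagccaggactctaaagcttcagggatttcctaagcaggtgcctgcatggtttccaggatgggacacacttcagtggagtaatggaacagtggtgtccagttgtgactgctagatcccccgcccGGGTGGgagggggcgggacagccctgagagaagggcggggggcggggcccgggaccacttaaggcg
Ihh, chr1:74951673-74951922, minus strand: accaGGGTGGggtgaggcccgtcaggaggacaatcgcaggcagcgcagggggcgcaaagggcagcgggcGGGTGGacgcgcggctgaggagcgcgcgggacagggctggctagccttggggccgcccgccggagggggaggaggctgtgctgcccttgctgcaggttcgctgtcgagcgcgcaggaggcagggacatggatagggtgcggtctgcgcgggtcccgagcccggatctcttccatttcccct
Smo, chr6:29735247-29735496, plus strand: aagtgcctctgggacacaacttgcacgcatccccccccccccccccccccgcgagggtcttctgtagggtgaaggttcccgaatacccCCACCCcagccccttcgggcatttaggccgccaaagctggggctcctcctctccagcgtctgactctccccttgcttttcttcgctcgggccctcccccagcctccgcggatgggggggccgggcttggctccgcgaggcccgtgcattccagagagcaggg
Windows from 250 bases before to 50 after a transcript start were found for 8 of the 9 genes, Gli1 being the exception. The full consensus was in 0 of these 8 windows on either strand and in 0.253% of all 32851 promoter windows. The core, which lies inside the consensus, was in 6 of the 8 windows and in 31.5% of all windows. It was found in windows of genes that fell (Dhh, Smo, Gli2) and of genes that were not called (Ihh, Hhip, Gli3). It was not found in those of Ptch1 and Sufu. The transcript starts used for Ptch1, Gli2 and Hhip lie 7725, 786 and 52 bases inside the outer gene start. The windows of Ptch1 and Gli2 thus do not reach the outer start, and sequence there was not searched. A match describes letters in a window and is no evidence of binding. The core is rich in G and C, and the 8 windows held 56.3% to 76.3% of these bases. The shares of windows with the core were not adjusted for base composition.

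The receptor and the transducer next to it were both lower. Ptch1, the Patched receptor gene and a GLI target, stood at 7.25, 7.72 and 7.75 with DMSO and at 5.72, 6.28 and 6.14 with Torin1. All Torin1 arrays lay more than the spread of either group below the DMSO arrays. Ptch1 fell by 1.53 ± 0.19 (SE; 2.88-fold lower; limma adjusted p = 0.0029), from 7.58 ± 0.28 to 6.05 ± 0.29 (SD, n = 3 each). Smo, which encodes the transducer that Patched inhibits, stood at 7.87, 7.84 and 7.71 with DMSO and at 6.99, 6.83 and 6.79 with Torin1. The arrays within each group were close together. Smo fell by 0.93 ± 0.09 (SE; 1.91-fold lower; limma adjusted p = 0.00102). Dhh, Ptch1 and Smo were called in each of the 16 alternative analyses, including those that left out each array in turn.

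Hhip, a membrane protein gene whose product sequesters ligand and another GLI target, lay near the bottom of the scale. Its values were 2.64, 2.61 and 2.58 with DMSO and 2.60, 2.47 and 2.54 with Torin1, overlapping and below the median gene in both groups. At this signal a fall could not be detected, and no rise was seen (difference -0.07 ± 0.07 SE, limma adjusted p = 0.667).

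Sufu, the gene of the cytoplasmic inhibitor of GLI proteins, stood at 7.59, 7.67 and 7.66 with DMSO and at 7.30, 7.24 and 7.49 with Torin1. The groups did not overlap, but the difference of -0.30 ± 0.09 (SE) was not called (limma adjusted p = 0.0762). Without Torin1 array 3 it was -0.38 and called lower (limma adjusted p = 0.0241). A second, dimmer probe set for Sufu gave 6.27, 6.21 and 6.24 with DMSO and 5.49, 5.37 and 6.45 with Torin1. On that probe set Torin1 arrays 1 and 2 lay below the DMSO arrays and array 3 lay above them.

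Among the GLI genes, Gli1 and Gli2 fell, and Gli3 was not called. Gli1, the amplifying activator and classical target of the pathway, stood at 4.86, 5.45 and 5.66 with DMSO and at 3.82, 4.05 and 4.35 with Torin1. The lowest DMSO array was still above the highest Torin1 array. Gli1 fell by 1.25 ± 0.23 (SE; 2.38-fold lower; limma adjusted p = 0.0133). Its Torin1 mean, 4.08, was under that of the median gene, which leaves the size uncertain, and without DMSO array 2 it was not called (limma adjusted p = 0.0551). Gli2, the main activator of the initial response, stood at 5.49, 6.14 and 5.84 with DMSO and at 5.02, 4.95 and 5.02 with Torin1. The Torin1 arrays were nearly equal and the DMSO arrays spread over a wider range above them. Gli2 fell by 0.83 ± 0.16 (SE; 1.77-fold lower; limma adjusted p = 0.016). It was not called without DMSO array 3, Torin1 array 1 or Torin1 array 2 (limma adjusted p = 0.0647, 0.0522 and 0.0528).

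Gli3, which encodes the main GLI repressor, had a difference above 0. It stood at 5.82, 5.84 and 5.92 with DMSO and at 6.11, 6.23 and 6.55 with Torin1. Every Torin1 array was above every DMSO array, with array 3 the highest. The difference of 0.44 ± 0.12 (SE) was not called (limma adjusted p = 0.0611) but was called higher without Torin1 array 1 (limma adjusted p = 0.0491).

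**Figure D2:**
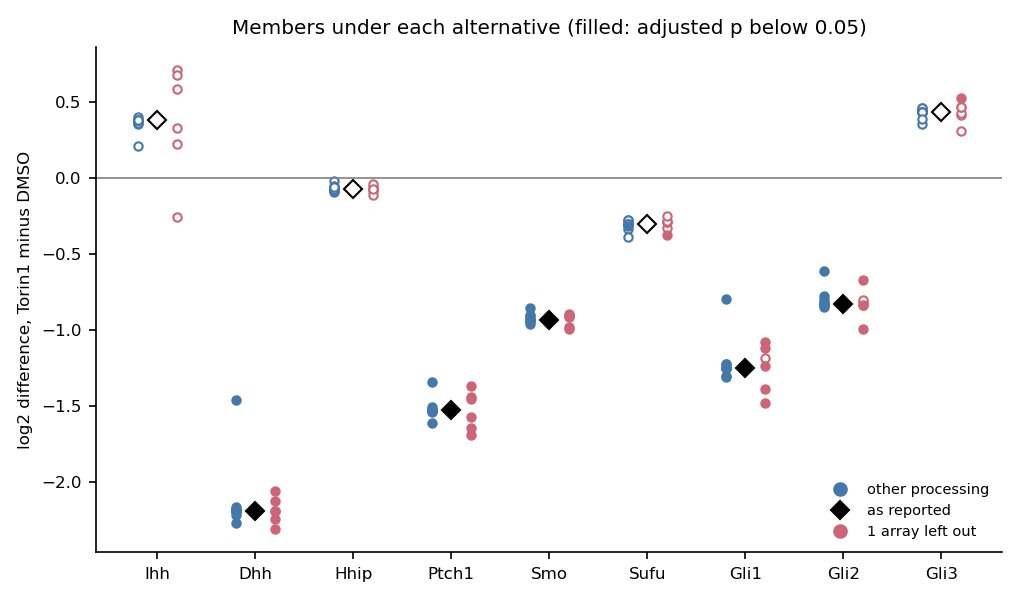
Log2 difference (Torin1 minus DMSO) of each Hedgehog gene as reported (diamonds), under other processing (blue) and with 1 array left out (red), with filled symbols for an adjusted p below 0.05. Dhh, Ptch1 and Smo stay filled and below 0 throughout, while Ihh is the only one of the 9 that crosses 0, at -0.25 without Torin1 array 3.

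The genes of the whole table whose profiles over the 6 arrays were nearest to each called member were found by the root mean square difference of centred log2 values. For Dhh these were Slc44a3, Tnni3 and Fads2, at 0.15 to 0.17. For Ptch1 they were Denn2b, Duox2 and Coasy, at 0.15 to 0.16. Foxp4, Bok and Bcl7a were nearest to Smo, at 0.06 to 0.08. For Gli1 they were Mvd, Denn2b and Scx (0.13 to 0.15), and for Gli2 Mylk, AU021092 and Capn5 (0.10 to 0.11). The likeness is a description, since all 6 arrays share the difference between groups.

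Of 64 further measured genes of the pathway, taken from textbook knowledge, 6 rose, 4 fell and 54 were not called. This is 15.6% called, near the 12.1% of all genes, and the median difference was 0.06. Without DMSO array 2, DMSO array 3 or Torin1 array 1 the count was 6 each time, and without Torin1 array 3 it was 13.

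Genes for making, releasing and spreading the ligands gave 0 calls of 10 (limma; without adjustment, 1 was higher and 1 lower at p below 0.05). Of all genes 12.1% were called, and 11.3% were higher and 12.7% lower without adjustment. Below the median gene in both groups lay 6 of these 10, against 10764 of all 22180 genes, which limits what could be called. Scube1 and Scube3, whose products help to release or present lipid-bearing ligand, had differences of 0.71 ± 0.20 and -0.89 ± 0.31 (SE; limma adjusted p = 0.0708 and 0.133). Scube3 has 2 probe sets, and their mean gave a smaller difference of -0.44 (limma adjusted p = 0.288). Shh, the ligand gene known from limb and neural tube, was named after its values were seen. It lay below the median gene in both groups, at 3.26 ± 0.03 and 3.19 ± 0.15 (SD, n = 3 each).

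Among 11 measured co-receptors and membrane regulators 1 rose, 2 fell and 8 were not called. The called share was 27.3%, against 12.1% of all genes. Only 1 of the 11 lay below the median gene in both groups, against 10764 of all 22180 genes. Boc, a co-receptor gene that helps Patched to bind ligand, stood at 5.82, 5.80 and 6.15 with DMSO and at 8.44, 8.52 and 9.14 with Torin1. The groups lay far apart, with Torin1 array 3 the highest. Boc rose by 2.77 ± 0.20 (SE; 6.84-fold higher; limma adjusted p = 0.000384) and was called in each of the 16 alternatives. Its partner co-receptor genes Cdon and Gas1, also named after their values were seen, differed by 0.13 ± 0.12 and 0.26 ± 0.27 (SE) with overlapping arrays and were not called (limma adjusted p = 0.653 and 0.690). Evc2, for a ciliary protein that relays the SMO signal, fell by 0.81 ± 0.15 (limma adjusted p = 0.0148, and 0.0551 without DMSO array 2). Mgrn1, for a ubiquitin ligase that limits SMO at the membrane, fell by 0.33 ± 0.07. It lost the call, not the direction, without DMSO array 2, DMSO array 3, Torin1 array 1 or Torin1 array 2 (limma adjusted p up to 0.104).

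Of 22 measured intracellular regulators between SMO and GLI, 3 rose, 1 fell and 18 were not called, with a median of 0.16. The called share was 18.2%, against 12.1% of all genes. Below the median gene in both groups lay 0 of these 22, against 10764 of all 22180 genes. Arrb2, a β-arrestin gene, rose by 0.56 ± 0.09 (limma adjusted p = 0.00796) and was called in each alternative. Prkar1a and Prkaca encode a regulatory and a catalytic subunit of protein kinase A, which marks GLI proteins for processing, and Csnk1e encodes a casein kinase. Prkar1a rose by 0.37 ± 0.08 and Csnk1e by 0.36 ± 0.09, and Prkaca fell by 0.46 ± 0.11. Prkar1a lost its call when DMSO array 1, 2 or 3 or Torin1 array 1 or 2 was left out, Csnk1e whichever array was left out, and Prkaca when a DMSO array or Torin1 array 1 was left out (limma adjusted p up to 0.110, 0.143 and 0.144).

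Of 21 other textbook GLI targets measured, 2 rose, 1 fell and 18 were not called, with a median of 0.07. The called share of 14.3% is near the 12.1% of all genes, and 9 lay below the median gene in both groups. Prdm1, a transcriptional repressor gene, stood at 5.70, 5.81 and 5.62 with DMSO and at 8.05, 8.16 and 8.24 with Torin1. Grem1, which encodes a secreted BMP antagonist, stood at 6.81, 6.60 and 6.71 with DMSO and at 8.99, 8.98 and 8.96 with Torin1. In both genes the arrays of a group agreed within a fraction of the difference between groups. Prdm1 rose by 2.44 ± 0.09 and Grem1 by 2.27 ± 0.08 (SE; limma adjusted p = 3.9e-05 each). Cdk6, a G1 cyclin-dependent kinase gene, fell by 1.34 ± 0.18 (limma adjusted p = 0.00415). These genes respond to other pathways too, so their list is not specific to Hedgehog.

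**Figure D3:**
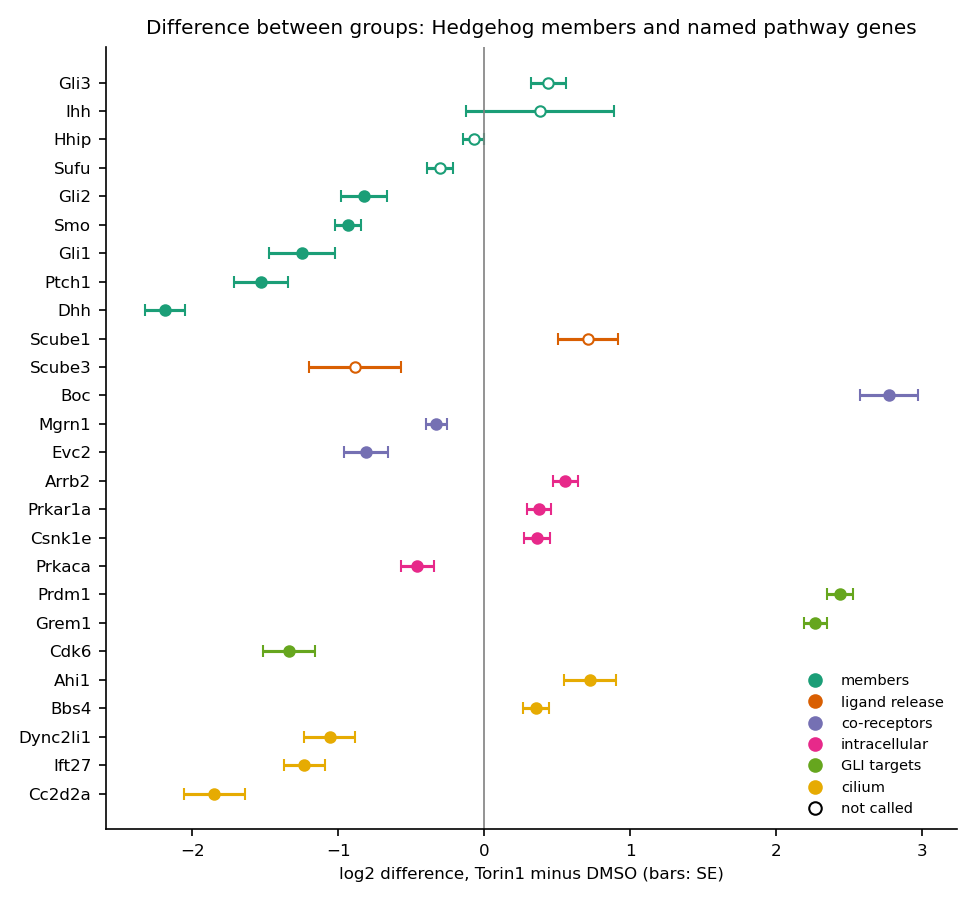
Log2 difference (Torin1 minus DMSO) with its SE for the 9 members and the named genes of the other Hedgehog lists and the cilium list, coloured by list, with open symbols where the gene was not called. Boc, Prdm1 and Grem1 lie above 2, opposite to Dhh, Ptch1 and Gli1, which lie below -1.

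Vertebrate Hedgehog signalling runs through the primary cilium, and genes of that organelle were more often lower than higher. Of 56 listed, 48 were measured, and 11 fell, 2 rose and 35 were not called, with 36 below 0 and a median of -0.25. The called share of 27.1% stands beside 12.1% of all genes, but few cilium genes were dim. Below the median gene in both groups lay 4 of the 48, against 10764 of all 22180 genes. With only the 11416 genes above the median gene in their higher group, 2840 were called, and 15 of 44 cilium genes. The count of 13 calls was 8 without DMSO array 1 and 7 without DMSO array 3. Cc2d2a, for a transition zone protein, stood at 7.17, 7.31 and 7.48 with DMSO and at 5.15, 5.30 and 5.96 with Torin1. It fell by 1.85 ± 0.21 (SE; 3.61-fold lower; limma adjusted p = 0.00213). Ift27, an intraflagellar transport gene, fell by 1.23 ± 0.14 and Dync2li1, for a subunit of the motor that returns cargo from the cilium tip, by 1.06 ± 0.18 (limma adjusted p = 0.00209 and 0.00967). These 3 were called in each alternative. Ahi1 and Bbs4 rose by 0.72 ± 0.18 and 0.35 ± 0.09, and each lost the call in 5 of the 6 analyses that left out 1 array (all but Torin1 array 3 for Ahi1 and all but Torin1 array 1 for Bbs4; limma adjusted p up to 0.121 and 0.134).

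**Figure D4:**
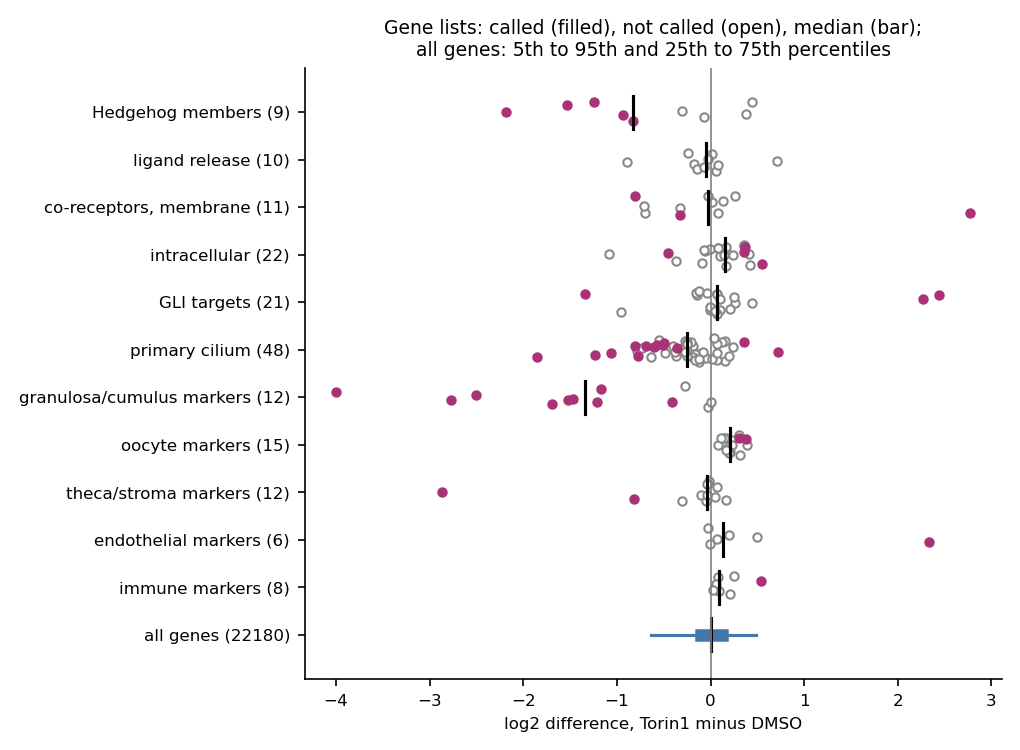
Log2 difference (Torin1 minus DMSO) of every measured gene in each list, filled where called, with the list's median as a bar and the number of genes in parentheses, above the spread of all 22180 genes. The Hedgehog members and the granulosa and cumulus markers have medians of -0.83 and -1.34, while the other Hedgehog lists are centred near 0.

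Most markers of the cells known to make the ligands were lower on the same arrays. Of 12 granulosa and cumulus markers 9 fell, 0 rose (0 also at an unadjusted p below 0.05 in limma) and 3 were not called, and their summed intensity was 4881 to 5346 with DMSO and 2348 to 2732 with Torin1. The called share was 75%, against 12.1% of all genes. The 3 not called, named after their values were seen, were Gata4, Nr5a1 and Wt1. They differed by -0.03 ± 0.10, 0.00 ± 0.11 and -0.27 ± 0.15 (SE), so the fall was uneven over the list. Amhr2, a hormone receptor gene, fell from 8.03 ± 0.14 to 4.04 ± 0.95 (SD, n = 3 each). Fshr, another, fell by 2.78 ± 0.40 (SE), and Slc38a3 fell by 2.50 ± 0.61. Slc38a3 lost the call, not the direction, without DMSO array 2, DMSO array 3, Torin1 array 1 or Torin1 array 2 (limma adjusted p up to 0.119). Its DMSO values were 8.06, 5.91 and 5.84, and without DMSO array 1 the difference was -1.77. Oocyte markers summed to 6868 to 7313 with DMSO and 7614 to 8412 with Torin1. All 15 differences were above 0, from 0.08 to 0.39, and the groups did not overlap for 13, against 28.6% of all genes. At an unadjusted p below 0.05 in limma 9 were higher (60%, against 11.3% of all genes). Called were 2 of 15 (13.3%, against 12.1% of all genes). These were Dppa3 and Figla, which rose by 0.31 ± 0.07 and 0.38 ± 0.09, Dppa3 losing the call whichever array was left out and Figla without DMSO array 1, DMSO array 3, Torin1 array 1 or Torin1 array 2 (limma adjusted p up to 0.118 and 0.116). On whole complexes, fewer cumulus cells and less RNA of these genes per cell cannot be told apart. The part of either in the Hedgehog falls was not tested.

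Markers of theca and stroma, the known responding cells, were mostly dim. Of 12 measured, 8 lay below the median gene in both groups, among them Cyp17a1, the androgen-forming enzyme gene that defines theca, at 2.82 ± 0.13 with DMSO and 2.87 ± 0.06 with Torin1 (SD, n = 3 each). Acta2, for smooth muscle actin, fell by 2.87 ± 0.12 and Pdgfra, a growth factor receptor gene, by 0.82 ± 0.08 (SE; limma adjusted p = 5.28e-05 and 0.0013), and the other 10 were not called. The list's summed intensity was 486 to 578 with DMSO and 222 to 230 with Torin1, and without Acta2 it was 183 to 209 and 179 to 181. Endothelial markers summed to 101 to 107 and 147 to 268, or without Cdh5 to 84.9 to 90.6 and 89.9 to 119.7, with Cdh5 the 1 called gene of 6 (2.33 ± 0.37) and 3 of 6 below the median gene in both groups. Immune markers summed to 76.6 to 82.2 and 90.7 to 95.9, with 7 of 8 below the median gene in both groups and Cd68 the 1 called gene (0.54 ± 0.11), lost without DMSO array 1, DMSO array 2, DMSO array 3 or Torin1 array 1 (limma adjusted p up to 0.0681). The called shares of the theca and stroma, endothelial and immune lists were 16.7%, 16.7% and 12.5%, against 12.1% of all genes. The part of these other cells in the Hedgehog differences was not tested.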

How the data were processed

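Arrays of 3 DMSO and 3 Torin1 samples were grouped by their titles. The authors deposited 1 intensity per probe set and array on a linear scale, for which the submitters' processing notes name RMA, Affymetrix Expression Console 1.1 and GCOS. RMA gives the arrays a common distribution, so changes are relative to other transcripts. Their settings and the probe set build are not given in the sources used. Precision is limited by the number of arrays.

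Of 41345 probe sets, 23521 named 1 gene and 1814 named several (left out), and 16010 were unnamed here. Entrez identifiers of 23328 matched RefSeq. The brightest probe set by mean over all 6 arrays stood for each of 22180 genes. Groups were compared on log2(intensity + 1) by limma 3.58.1 in R 4.3.3 (lmFit, eBayes, two-sided, no covariate or filter), adjusted by Benjamini-Hochberg over all genes. On simulated data with these 22180 genes, 50 genes were changed at each of the sizes 0.5, 1, 2 and 3 (log2). Of those changed by 0.5, 26% were recovered, by 1, 80%, and by 2, 92%. Far fewer genes were changed there than the 2678 called here, so the adjusted threshold differs and these rates do not give the recovery in the data.

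Members, lists and tests were chosen with earlier results of these data known. Named were all members, up to 3 called genes in each direction per other list (otherwise the 2 with the smallest p) and the 3 nearest profiles of each called member. Genes named after their values were seen are marked so. Promoter windows were searched on both strands. Same-numbered samples did not deviate together (correlations across genes of -0.21, -0.30 and -0.15), so the numbers were not taken as pairs. Correlations of differently numbered samples ran from -0.12 to 0.31, the highest being DMSO 2 with Torin1 1. Whether such samples share a source was not tested. The 16 alternatives covered pseudocount, filter, scaling, probe sets, model, replicate block, merging Torin1 2 and 3, and each array left out.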

Additional observations from a re-analysis of the deposited data

How the results depend on the processing

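Of the members' 143 alternative values, 134 kept their direction and side of the threshold, 4 lost the call (Gli1 and Gli2 only), 4 gained one (Sufu and Gli3 only) and 1, Ihh without Torin1 array 3, changed sign to -0.25 (its range with 1 array left out was -0.25 to 0.71). The gains were Sufu without Torin1 array 3 or with Torin1 2 and 3 as 1 sample (adjusted p = 0.0471 in limma), and Gli3 without Torin1 array 1 or among genes above the median gene (0.0455). With a pseudocount of 16 the differences of Dhh and Gli1 were -1.46 and -0.79, since a larger pseudocount compresses dim values. With 1 array left out, the members called numbered 4 to 6, the other pathway genes 6 to 13, the cilium genes 7 to 16 and all genes 1518 to 3083. A replicate block, which the data do not bear out as a pairing, gave 5 members, 6 other pathway genes, 9 cilium genes and 1565 genes in all. Of the 416 values of other named genes, 346 were unaltered in direction and call, 69 lost the call, 1 gained it and 0 changed sign. Signal over background was not measured per probe set here, which limits Hhip, the Torin1 levels of Dhh and Gli1, and the dim lists.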

Other observations

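In linear intensity units, Ihh was 122, 85.0 and 73.1 on DMSO arrays 1, 2 and 3 and 74.8, 78.2 and 288 on Torin1 arrays 1, 2 and 3. Single values of this kind on Torin1 array 3 also occurred in other pathway genes. As examples, 2 that were not called were chosen after their values were seen, and they are not the only ones. Ccnd2, a G1 cyclin gene, was at 9.12, 8.97 and 9.03 with DMSO and at 7.79, 7.71 and 8.75 with Torin1 on the log2 scale (limma adjusted p = 0.0604). Arrb1, a β-arrestin gene, was at 7.54, 7.72 and 7.89 with DMSO and at 6.86, 7.17 and 5.87 with Torin1 (limma adjusted p = 0.0718). In both genes every Torin1 array lay below every DMSO array, and array 3 was the Torin1 array farthest from the others.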
